A study of Homo sapiens with 48 samples.

Results

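Transcripts of 8 genes that encode subunits of the AP-1 transcription factors and a small MAF protein were followed in BEAS-2B cells, an immortalised human bronchial epithelial line, after stimulation of cAMP signalling. The genes were FOS, FOSB, FOSL1, FOSL2, JUN, JUNB, JUND and MAFF, 8 of the 19775 genes that had a probe set annotated to 1 symbol. Each gene was represented by its brightest such probe set, taken over the mean of log2(signal + 16) on all 48 arrays, and its other probe sets are given beside it. FOSB lay below the signal of 75.42 under which genes were not tested, and the remaining 7 were among 14409 tested genes.

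Confluent cells received Ind/GSK, which is indacaterol with GSK 256066 (10 nM each), GS-5759 (10 nM) or Vehicle for 1, 2, 6 or 18 h, with 4 Affymetrix arrays in each of the 12 groups. Indacaterol is a long-acting agonist of the β2-adrenoceptor, GSK 256066 an inhibitor of the cAMP-degrading enzyme PDE4, and GS-5759 a single molecule with both activities. All cells, Vehicle included, had been grown in a serum-free keratinocyte medium supplemented with epidermal growth factor and pituitary extract, and then for a day in the medium alone. The labels do not say that replicates were separate cultures, so the spread behind each p-value is that between these arrays only, and may be technical. In fits that do not use the replicate number, that spread also holds the difference of replicate 3 from the others, given below. Signals are on the linear PLIER scale of each probe set, and no gene's signal is compared with another gene's. Differences are between group means of log2(signal + 16), which understates the change of dim genes, and errors of such differences are standard errors from limma (n = 4 arrays per group). A gene is said to have risen or fallen only where limma's Benjamini-Hochberg adjusted p was under 0.05.

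AP-1 is a dimer of basic leucine zipper proteins. FOS family proteins do not dimerise with each other and need a JUN family partner, whereas JUN proteins also pair among themselves. Many of these genes are immediate early genes: their transcription starts within minutes of a signal, without new protein synthesis, and their mRNAs are short-lived. In the cAMP pathway, protein kinase A phosphorylates CREB, which binds the cAMP response element (CRE), and FOS is a classical CREB target. MAFF is a small MAF protein, which lacks a transactivation domain of its own and acts as a partner of NRF2 and related factors.

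Replicate 3 stood apart on all 12 of its arrays. The summed signal of 8 airway epithelial markers was 239790 to 491570 there, against 8892 to 15138 on the 36 arrays of replicates 1, 2 and 4. The basal keratins carried most of this: the median signal of KRT14 was 316000 in replicate 3 and 25.1, 26.4 and 20.6 in replicates 1, 2 and 4, and that of KRT5 was 32800 against 188, 151 and 142. KRT8 and KRT18, keratins of simple epithelium, were bright on all arrays, and KRT15 and KRT19, below the filter in their mean over all arrays, had medians of 906 and 3360 in replicate 3, against at most 8.72 and 62.5 in the others. The summed signal of 7 fibroblast markers was lowest in replicate 3, with a median of 9655 against 12216, 14300 and 14825. Most of that sum was COL1A1, which was lowest there (7310, against 8740, 9820 and 10400), as were PDGFRB and THY1. The medians of DCN (193, against 129, 125 and 114), COL1A2 and LUM were instead highest in replicate 3, and that of COL3A1 was neither. The labels call all arrays BEAS-2B and name no other source for replicate 3; whether it holds the same cells as the other replicates was not tested. Over all replicates the airway epithelial sums were 9643 to 491570 on Ind/GSK arrays and 9308 to 443110 on GS-5759 arrays, against 8892 to 326260 on Vehicle arrays. Their medians were 13695, 13980 and 14064, and the highest sums were on replicate 3 arrays. In replicate 3, with 1 array per group, the sum was higher with each drug than with Vehicle at every time. At 1 h it was 341520 with Ind/GSK and 377730 with GS-5759, against 239790 with Vehicle. Among the AP-1 genes, replicate 3 had the highest median signal of FOS (245, against 123, 85.3 and 83.9 in replicates 1, 2 and 4) and JUNB (993, against 597, 502 and 464), and the lowest of FOSL1 (245, against 517, 511 and 515) and JUN (1896, against 3212, 3266 and 3237). It was also lowest for MAFF (1369, against 2235, 2151 and 2122), FOSB (18.5, against 38.1, 40.5 and 26.4), FOSL2 and JUND. The part of this difference in the drug responses was not tested, and results are given without replicate 3 below. For fits without replicate 3 the share of all genes called is not given, so members' calls there cannot be set against it. Same-numbered arrays deviated together from their group means, so values with the replicate number as a block stand beside the results they change.

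Promoter sequences of 7 of the 8 genes were available from RefSeq (GRCh38.p14), as 250 bases before and 50 bases after the start; FOSL1 was not among them. They are shown for FOSL2, MAFF and FOS, which were higher with drug, and for JUN and JUND, which were not, so that the CRE letters can be compared. Each runs 5′ to 3′ on the gene's own strand in lower case, with the CRE core TGACG, or its complement CGTCA, in capitals. They lie at chr14:75278578-75278877 (plus strand) for FOS, chr2:28392608-28392907 (plus strand) for FOSL2, chr22:38201744-38202043 (plus strand) for MAFF, chr1:58783998-58784297 (minus strand) for JUN, chr19:18281573-18281872 (minus strand) for JUND.
FOS: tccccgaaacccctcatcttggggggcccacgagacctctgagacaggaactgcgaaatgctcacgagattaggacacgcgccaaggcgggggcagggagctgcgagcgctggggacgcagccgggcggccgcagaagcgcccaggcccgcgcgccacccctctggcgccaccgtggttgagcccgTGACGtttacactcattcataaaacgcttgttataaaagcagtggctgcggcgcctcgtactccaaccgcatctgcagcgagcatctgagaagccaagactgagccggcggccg
FOSL2: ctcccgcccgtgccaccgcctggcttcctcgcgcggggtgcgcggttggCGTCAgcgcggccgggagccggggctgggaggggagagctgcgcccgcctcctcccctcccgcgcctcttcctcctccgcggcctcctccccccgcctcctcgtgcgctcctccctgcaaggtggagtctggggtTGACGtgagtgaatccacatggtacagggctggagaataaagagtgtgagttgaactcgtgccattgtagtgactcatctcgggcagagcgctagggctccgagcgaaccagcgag
MAFF: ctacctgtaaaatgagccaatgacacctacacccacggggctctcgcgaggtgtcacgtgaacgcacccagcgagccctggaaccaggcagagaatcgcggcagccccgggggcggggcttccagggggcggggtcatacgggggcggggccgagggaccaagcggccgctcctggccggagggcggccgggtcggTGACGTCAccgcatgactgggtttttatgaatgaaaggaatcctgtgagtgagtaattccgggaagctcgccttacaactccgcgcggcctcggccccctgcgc
JUN: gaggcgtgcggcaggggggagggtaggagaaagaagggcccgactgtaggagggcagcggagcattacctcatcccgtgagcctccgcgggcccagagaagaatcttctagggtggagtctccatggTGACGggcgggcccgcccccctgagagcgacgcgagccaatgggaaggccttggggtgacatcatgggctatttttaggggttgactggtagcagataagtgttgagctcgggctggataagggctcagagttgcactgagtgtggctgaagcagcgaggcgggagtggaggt
JUND: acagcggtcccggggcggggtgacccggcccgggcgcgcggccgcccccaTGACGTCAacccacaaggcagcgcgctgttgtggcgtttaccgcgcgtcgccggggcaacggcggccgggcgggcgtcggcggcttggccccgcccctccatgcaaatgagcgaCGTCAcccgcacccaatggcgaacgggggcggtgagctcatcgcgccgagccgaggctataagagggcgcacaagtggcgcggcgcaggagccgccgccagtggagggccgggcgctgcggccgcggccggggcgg
The FOS window holds 1 CRE core, starting 64 bases before the transcription start. FOSL2 holds 2, at 201 and 66 bases before the start, and JUN holds 1, at 123 bases. MAFF, at the first of its 2 annotated starts, and JUND hold the full palindromic CRE, TGACGTCA, at 54 and 200 bases before the start; its complementary strands overlap, so it counts as 2 cores, and JUND holds a further core 86 bases before the start. The windows of FOSB and JUNB, not shown, hold 1 core each, 60 and 137 bases before the start, and the window at the second MAFF start holds none. The core occurred in 24.6% of 35116 promoter windows of this length and the full CRE in 1.85%. The AP-1 site TGANTCA was found in FOSL2 alone among the members' windows, 4 bases after the start, against 7.71% of all windows. The CArG box, the SRF binding motif, was found in no member's window, against 1.29%. Both strands were searched, but only for these exact patterns, so longer or variant AP-1 sites were not counted. Bases further than 250 before the start were not searched, so sites of either kind may lie there. A CRE core was thus present both in members that were higher with drug and in members that were not.

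FOSL2 and MAFF rose within 1 h of either treatment, and differed from Vehicle by at most 0.08 log2 units at 18 h. Their mean differences from Vehicle were largest at 2 h, but the change from 1 to 2 h, averaged over both drugs, passed the test for no member. The mean MAFF signal was lower at 2 h than at 1 h with Ind/GSK (3698 and 4557), GS-5759 (3917 and 5100) and Vehicle (1404 and 2184). The 1 h calls were less stable than those at 2 h: fitted on the groups of each comparison alone, 0 members passed with Ind/GSK at 1 h and 1, MAFF, with GS-5759, and leaving out any 1 replicate number left 0 to 1 with each drug. At 2 h FOSL2 and MAFF passed in all 4 such fits with each drug. Of the 7 tested members, 2 rose and none fell with Ind/GSK at 1 h, where 0.451% of all tested genes rose and 1.38% fell. With GS-5759 at 1 h 2 rose and none fell, against 0.257% and 0.0139% of all genes. At 2 h the counts were again 2 risen and 0 fallen with each treatment, against 1.34% risen and 2.15% fallen with Ind/GSK and 1.6% and 0.833% with GS-5759. FOSL2 alone rose with Ind/GSK at 6 h (1.03% of genes risen, 2.7% fallen) and none changed with GS-5759 at 6 h (1.03% and 0.548%). At 18 h no member changed with Ind/GSK (0.0208% of genes risen, 0.0278% fallen) or GS-5759 (0% and 0%), and none had an unadjusted p under 0.05. Groups that did not overlap gave a like picture. Of all 8 members, 2 had every Ind/GSK array above every Vehicle array at 1 h (FOSL2 and MAFF), and the same 2 every GS-5759 array; among tested genes 1.35% were higher and 6.31% lower without overlap with Ind/GSK, and 1.24% and 1.48% with GS-5759. With Ind/GSK at 2 h 3 members were higher without overlap (FOSB, FOSL2 and MAFF; 1.96% of genes higher, 5.77% lower), and with GS-5759 at 2 h 4 were, FOS being the addition (2.98% and 5.39%). FOSL2 and MAFF again lay above Vehicle without overlap with Ind/GSK at 6 h (2.23% and 6.16%), and no member did with GS-5759 at 6 h (3.79% and 4.37%). At 18 h none was without overlap, against 1.44% of genes higher and 1.4% lower with Ind/GSK and 1.95% and 0.951% with GS-5759. In none of the 8 comparisons did a member lie below Vehicle without overlap. The comparisons of both drugs at a time share their Vehicle arrays. The median difference of the 7 members was 0.52 with Ind/GSK and 0.59 with GS-5759 at 1 h, and 0.82 and 0.97 at 2 h, beside medians over all tested genes of -0.10, -0.02, -0.05 and -0.01.

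With the replicate number as a block, FOS and JUNB joined FOSL2 and MAFF as higher, and some of FOSL1, JUN and JUND passed as lower. The counts were then 4 higher and 3 lower with Ind/GSK at 1 h, 4 and 0 with GS-5759 at 1 h, 4 and 2 with each treatment at 2 h, 3 and 0 with Ind/GSK and 2 and 0 with GS-5759 at 6 h. Over all tested genes the block called 2.28% higher and 15.8% lower with Ind/GSK at 1 h, 0.999% and 0.354% with GS-5759 at 1 h, 3.76% and 8.09% with Ind/GSK at 2 h and 5.27% and 4.05% with GS-5759 at 2 h. At 6 h the shares were 4.68% and 13.1% with Ind/GSK and 6.01% and 4.58% with GS-5759. At 18 h no member passed with the block, where it called 0.514% of genes higher and 1.37% lower with Ind/GSK and 0.0972% and 0.0486% with GS-5759. The median of all genes with Ind/GSK at 1 h was -0.0972 as deposited, 0.0238 after centring each array on its 75th percentile and -0.0062 after quantile normalization, and for GS-5759 minus Ind/GSK at 1 h it was 0.0853, -0.0225 and -4e-04 under the same scalings. For Ind/GSK minus Vehicle at 1 h, the signs of the 7 tested members' differences were the same under all 3 scalings.

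**Figure D1:**
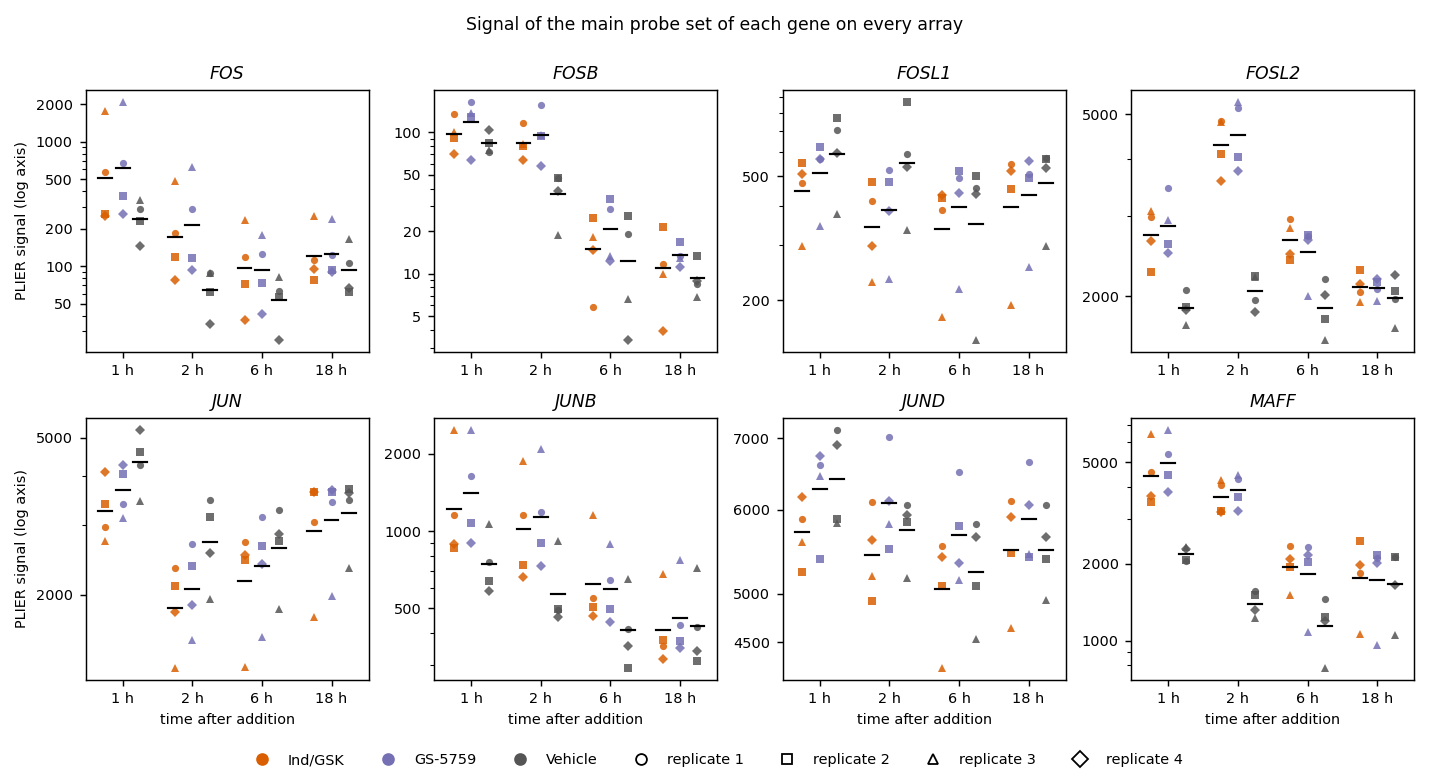
Signal of the main probe set of each gene on all 48 arrays (log axis, PLIER units) at 1, 2, 6 and 18 h; within each time Ind/GSK, GS-5759 and Vehicle stand from left to right, marker shapes give the replicate number and black bars the group mean of log2(signal + 16) turned back to a signal. FOSL2 and MAFF with drug lie above all Vehicle arrays at 1 and 2 h, and replicate 3 (triangles) is the highest array of FOS and JUNB and the lowest of FOSL1 and JUN in most groups.

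FOS encodes the founding member of the family. At 1 h its signal in replicates 1 to 4 was 572, 260, 1772 and 251 with Ind/GSK and 671, 368, 2083 and 263 with GS-5759, against 287, 232, 340 and 146 with Vehicle. At 2 h it was 186, 118, 484 and 77.9 with Ind/GSK and 287, 116, 622 and 92.7 with GS-5759, against 87.2, 61.4, 87.5 and 34.3 with Vehicle. Replicate 3 was the highest array in all of these groups, and the groups overlapped except for GS-5759 and Vehicle at 2 h, where every GS-5759 array was above every Vehicle array (as for 2.98% of genes). Taken pair by pair, FOS was higher with drug than on the Vehicle array of its own number in 32 of 32 differences over both drugs and 4 times, from 0.15 to 2.56 log2 units at 1 h and from 0.78 to 2.62 at 2 h. As groups the differences were 1.04 ± 0.60 with Ind/GSK and 1.29 ± 0.60 with GS-5759 at 1 h, and 1.23 ± 0.60 and 1.52 ± 0.60 at 2 h, which did not pass the test (adjusted p = 0.349, 1, 0.353 and 0.232). With the replicate block the same differences had adjusted p = 0.00749, 0.00241, 9.6e-04 and 6.07e-05. Without replicate 3 they were smaller, at 0.61, 0.86, 0.89 and 1.15, with adjusted p = 0.352, 1, 0.381 and 0.183 unblocked and 0.0375, 0.0182, 0.00447 and 2.02e-04 with the block. At 6 h the differences were 0.69 and 0.64 and at 18 h 0.33 and 0.38, none past the test with or without the block.

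Mean FOS signals at 1, 2, 6 and 18 h were 714, 216, 116 and 134 with Ind/GSK, 846, 280, 104.5 and 136 with GS-5759, and 251.5, 67.6, 56.8 and 99.7 with Vehicle. In the order of mean log2 levels both drugs at 1 h came highest, then Vehicle at 1 h (8.004) and GS-5759 at 2 h (7.844), whose mean signal was above that of Vehicle at 1 h, and Vehicle at 6 h came lowest. None of the 11 steps between neighbouring groups in this order was larger than the larger of their SDs on the log2 scale.

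FOSB encodes the FOS relative that is likewise induced as an immediate early gene. Its probe set was dim, with a mean level of 37.7, and was tested alone with exact two-sided permutation tests of 4 against 4 arrays, for which 0.0286 is the smallest p possible. At 2 h its signal in replicates 1 to 4 was 116, 80.6, 82.1 and 63.8 with Ind/GSK and 156, 93.6, 95.6 and 57.8 with GS-5759, against 47.6, 47.5, 18.8 and 38.2 with Vehicle. Every drug array lay above every Vehicle array. The differences were 0.93 with Ind/GSK and 1.09 with GS-5759 (exact permutation p = 0.0286 for each; 0.114 after Benjamini-Hochberg adjustment over the 8 FOSB tests), so neither passed after adjustment. When no filter on low signals was set, limma gave them adjusted p = 0.0437 and 0.0139 among 19775 genes. At 1 h FOSB averaged 99.6 ± 27.2 with Ind/GSK and 123 ± 42.5 with GS-5759, against 84.2 ± 14.0 with Vehicle (SD, n = 4 each), and the groups overlapped. By 6 h the means were 15.8, 21.9 and 13.6 in the same order, and by 18 h 11.7, 13.5 and 9.42, all below the filter. In its order of levels 2 of 11 steps were larger than the SDs, that between Vehicle at 1 h and Vehicle at 2 h and that between Vehicle at 2 h and GS-5759 at 6 h.

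FOSL1 encodes FRA-1, a FOS-related protein known for its roles in epithelial migration and wound repair. Its signal at 2 h in replicates 1 to 4 was 417, 479, 229 and 299 with Ind/GSK and 525, 481, 234 and 387 with GS-5759, against 590, 865, 337 and 536 with Vehicle. Replicate 3 was the lowest array in each group and the groups overlapped. Within replicate numbers, however, FOSL1 was lower with drug on all 4 arrays of each treatment at 1 h and at 2 h, and in 26 of 32 differences over all times. The group differences at 2 h were -0.66 ± 0.36 with Ind/GSK (adjusted p = 0.438; 2.27e-04 with the block) and -0.49 ± 0.36 with GS-5759 (0.693; 0.00843 with the block). Leaving out replicate 3, FOSL1 fell with Ind/GSK at 2 h in the unblocked fit (-0.71 ± 0.14, adjusted p = 0.00414), and its difference with GS-5759 was -0.48 ± 0.14 (adjusted p = 0.078). At 1 h the differences were -0.39 with Ind/GSK (adjusted p = 0.0295 with the block) and -0.20 with GS-5759 (0.726 with the block). At 6 h they were -0.06 and 0.17, and at 18 h -0.25 and -0.13, none past either test. Mean signals at 1, 2, 6 and 18 h were 459, 356, 357 and 428 with Ind/GSK, 525, 407, 419 and 454 with GS-5759, and 611, 582, 386 and 492 with Vehicle. Vehicle at 1 and 2 h headed this order, and none of its 11 steps was larger than the SDs.

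FOSL2 encodes FRA-2, the other FOS-related protein without a strong transactivation domain. At 1 h its signal in replicates 1 to 4 was 2976, 2264, 3076 and 2646 with Ind/GSK and 3446, 2606, 2941 and 2485 with GS-5759, against 2060, 1898, 1736 and 1867 with Vehicle. The 2 h signals were 4830, 4089, 4813 and 3585 with Ind/GSK and 5166, 4033, 5323 and 3757 with GS-5759, against 1960, 2220, 2207 and 1846 with Vehicle. All drug arrays were above all Vehicle arrays at both times, and replicate 3 did not stand out. FOSL2 rose by 0.52 ± 0.12 with Ind/GSK (1.44-fold, adjusted p = 0.0167) and by 0.59 ± 0.12 with GS-5759 (1.504-fold, adjusted p = 0.00886) at 1 h. At 2 h it rose by 1.06 ± 0.12 (2.09-fold, adjusted p = 1.25e-07) and by 1.13 ± 0.12 (2.19-fold, adjusted p = 2.12e-08). Each 2 h call held in all 8 fits that left out 1 of its arrays. The 1 h call with Ind/GSK was lost without Ind/GSK replicate 1, Ind/GSK replicate 3 or Vehicle replicate 2 (highest adjusted p = 0.072), and that with GS-5759 without GS-5759 replicate 1 or Vehicle replicate 3 (highest adjusted p = 0.135). Without replicate 3 altogether the 1 h differences were 0.43 and 0.53 (adjusted p = 0.0635 and 0.0534; 0.0146 and 0.00637 with the block) and the 2 h differences 1.04 and 1.09 (adjusted p = 3.9e-06 and 1.39e-06).

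At 6 h FOSL2 had signals of 2954, 2402, 2824 and 2471 with Ind/GSK and 2713, 2722, 2009 and 2660 with GS-5759, against 2178, 1786, 1607 and 2014 with Vehicle. It rose by 0.49 ± 0.12 with Ind/GSK (1.40-fold, adjusted p = 0.0131), and differed by 0.41 ± 0.12 with GS-5759 without passing the test (adjusted p = 0.0795; 0.0145 with the block). The Ind/GSK call was lost without Ind/GSK replicate 1, Ind/GSK replicate 3 or Vehicle replicate 3, with adjusted p of up to 0.0619, in the fit on the groups alone, and without replicate number 1, 2 or 3 altogether (up to 0.0995). GS-5759 and Vehicle overlapped through GS-5759 replicate 3, the lowest of its group. At 18 h the differences were 0.08 with each drug. Mean signals at 1, 2, 6 and 18 h were 2740, 4329, 2663 and 2100 with Ind/GSK, 2869, 4570, 2526 and 2091 with GS-5759, and 1890, 2058, 1896 and 1989 with Vehicle. In this order the 2 drugs at 2 h stood above all other groups by more than the SDs, and both drugs at 1 and 6 h formed a second level above both drugs at 18 h and all Vehicle groups. All 4 other FOSL2 probe sets were between 1.03 and 1.26 higher with Ind/GSK and between 1.12 and 1.42 higher with GS-5759 at 2 h, and each passed the test there. At 6 h with Ind/GSK, 1 of these 4 rose (0.48) and the other 3 differed by 0.17 to 0.22 without passing.

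JUN encodes c-JUN, the strongest activator of its family, whose gene AP-1 itself is known to drive. At 1 h its signal in replicates 1 to 4 was 2960, 3393, 2742 and 4090 with Ind/GSK and 3394, 4046, 3124 and 4255 with GS-5759, against 4261, 4594, 3446 and 5237 with Vehicle. At 2 h it was 2330, 2104, 1304 and 1807 with Ind/GSK and 2682, 2357, 1535 and 1886 with GS-5759, against 3468, 3139, 1953 and 2556 with Vehicle. The groups overlapped, yet each drug array was below the Vehicle array of its own number at 1, 2 and 6 h, and 30 of 32 differences over all times were below 0. The narrowest range was at 2 h, where the 4 same-numbered differences lay between -0.58 and -0.50 with Ind/GSK and between -0.44 and -0.34 with GS-5759. As groups the 2 h differences were -0.55 ± 0.25 (adjusted p = 0.309; 0.00167 with the block) and -0.39 ± 0.25 (0.603; 0.0377 with the block). At 1 h they were -0.41 with Ind/GSK (adjusted p = 0.39; 0.0202 with the block) and -0.24 with GS-5759 (1; 0.6 with the block). After 75th percentile centring the 1 h difference with Ind/GSK was -0.29. Without replicate 3, JUN fell with Ind/GSK at 2 h in the unblocked fit (-0.55 ± 0.13, adjusted p = 0.0218), while the GS-5759 difference of -0.41 ± 0.13 had adjusted p = 0.125 and, with the block, 0.0769. By 6 h the differences were -0.28 and -0.15, and by 18 h -0.15 and -0.06, none past either test.

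Mean JUN signals at 1, 2, 6 and 18 h were 3296, 1886, 2247 and 3023 with Ind/GSK, 3705, 2115, 2436 and 3188 with GS-5759, and 4385, 2779, 2679 and 3279 with Vehicle. The highest group was Vehicle at 1 h and the lowest were both drugs at 2 h, but no step between neighbours exceeded the SDs. The 3 other JUN probe sets were also lower in all 8 comparisons with Vehicle, with differences of -0.67 to -0.21 with Ind/GSK and of -0.59 to -0.28 with GS-5759 at 2 h, and none passed the unblocked test.

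JUNB encodes a JUN relative with weaker transactivation, which can oppose c-JUN. At 1 h its signal in replicates 1 to 4 was 1152, 862, 2479 and 892 with Ind/GSK and 1635, 1075, 2482 and 899 with GS-5759, against 762, 638, 1069 and 583 with Vehicle. The 2 h signals were 1152, 740, 1871 and 665 with Ind/GSK and 1185, 901, 2084 and 733 with GS-5759, against 491, 498, 917 and 463 with Vehicle. Replicate 3 was the highest array of every group and made the groups overlap. JUNB was higher than on the same-numbered Vehicle array in all 24 differences at 1, 2 and 6 h. The group differences were 0.70 ± 0.38 with Ind/GSK and 0.91 ± 0.38 with GS-5759 at 1 h, 0.82 ± 0.38 and 0.97 ± 0.38 at 2 h, and 0.58 ± 0.38 and 0.52 ± 0.38 at 6 h, with adjusted p between 0.22 and 0.894. With the block all 6 passed, with adjusted p between 1.48e-08 (GS-5759 at 2 h) and 0.00106 (GS-5759 at 6 h). Without replicate 3, JUNB rose at 2 h in the unblocked fit, by 0.76 ± 0.20 with Ind/GSK (adjusted p = 0.039) and by 0.91 ± 0.20 with GS-5759 (adjusted p = 0.00791), and its differences at 1 h were 0.54 and 0.81 (adjusted p = 0.12 and 0.085). At 18 h the differences were -0.04 and 0.10. Mean signals at 1, 2, 6 and 18 h were 1346, 1107, 669 and 433 with Ind/GSK, 1523, 1226, 620 and 482 with GS-5759, and 763, 592, 429 and 449 with Vehicle, with no step between neighbours in the order larger than the SDs.

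JUND encodes the JUN protein that most cells make steadily, and its signal moved the least. At 1 h it was 5878, 5241, 5598 and 6162 with Ind/GSK and 6602, 5388, 6449 and 6735 with GS-5759, against 7128, 5881, 5829 and 6894 with Vehicle in replicates 1 to 4. The groups overlapped, and the Ind/GSK arrays were each below the same-numbered Vehicle array. Over all 8 comparisons with Vehicle its differences lay between -0.17 and 0.11, with standard errors of 0.10, and none passed the unblocked test. Only the difference with Ind/GSK at 1 h passed with the block (-0.17, adjusted p = 0.0462), in a comparison where the block called 15.8% of genes lower. Relative to the median of all genes there it was smaller, and after 75th percentile centring it was -0.04. Mean signals at 1, 2, 6 and 18 h were 5720, 5459, 5075 and 5525 with Ind/GSK, 6293, 6113, 5697 and 5894 with GS-5759, and 6433, 5749, 5271 and 5509 with Vehicle, and no step in their order exceeded the SDs. The other JUND probe sets did not move as one: at 1 h with Ind/GSK they differed by -0.47, -0.35 and 0.01.

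MAFF encodes the small MAF protein of this set. At 1 h its signal in replicates 1 to 4 was 4574, 3501, 6471 and 3682 with Ind/GSK and 5401, 4462, 6705 and 3831 with GS-5759, against 2052, 2073, 2325 and 2288 with Vehicle. At 2 h it was 4087, 3236, 4282 and 3186 with Ind/GSK and 4309, 3667, 4479 and 3212 with GS-5759, against 1568, 1506, 1223 and 1317 with Vehicle. Every drug array was above every Vehicle array at both times, with replicate 3 the highest drug array. MAFF rose by 1.01 ± 0.26 with Ind/GSK (2.02-fold, adjusted p = 0.0313) and by 1.19 ± 0.26 with GS-5759 (2.28-fold, adjusted p = 0.0188) at 1 h. At 2 h it rose by 1.38 ± 0.26 (2.61-fold, adjusted p = 6.36e-04) and by 1.46 ± 0.26 (2.76-fold, adjusted p = 2.63e-04). The 2 h calls held whichever array was left out. The 1 h call with Ind/GSK was lost without replicate 1 or 3 of Ind/GSK or replicate 1 or 2 of Vehicle, and that with GS-5759 without replicate 1 or 3 of GS-5759 or replicate 1 or 2 of Vehicle, with adjusted p of up to 0.098 and 0.17. Without replicate 3 altogether the standard errors were 0.14, and MAFF rose at 1 h (0.86 and 1.08, adjusted p = 8.79e-04 and 2.25e-05), at 2 h (1.24 and 1.33, adjusted p = 9.55e-07 and 2.41e-07) and at 6 h (0.71 and 0.74, adjusted p = 0.00273 and 0.00204).

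With all replicates, the 6 h difference of MAFF was 0.77 ± 0.26 with Ind/GSK (adjusted p = 0.0921; 0.0199 with the block) and 0.67 ± 0.26 with GS-5759 (0.23; 0.0612 with the block). Its signals there were 2355, 1953, 1515 and 2085 with Ind/GSK and 2336, 2034, 1084 and 2159 with GS-5759, against 1462, 1238, 783 and 1197 with Vehicle. Replicate 3 was now the lowest array of each group. At 18 h the differences were 0.07 and 0.05. Mean signals at 1, 2, 6 and 18 h were 4557, 3698, 1977 and 1837 with Ind/GSK, 5100, 3917, 1903 and 1815 with GS-5759, and 2184, 1404, 1170 and 1740 with Vehicle. The 4 drug groups at 1 and 2 h formed the top of this order, and the step from them to Vehicle at 1 h was the only 1 of 11 larger than the SDs. The other MAFF probe set differed by 0.89 and 1.16 at 1 h and by 1.32 and 1.46 at 2 h with Ind/GSK and GS-5759, and passed in all of these but Ind/GSK at 1 h (adjusted p = 0.0517).

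**Figure D2:**
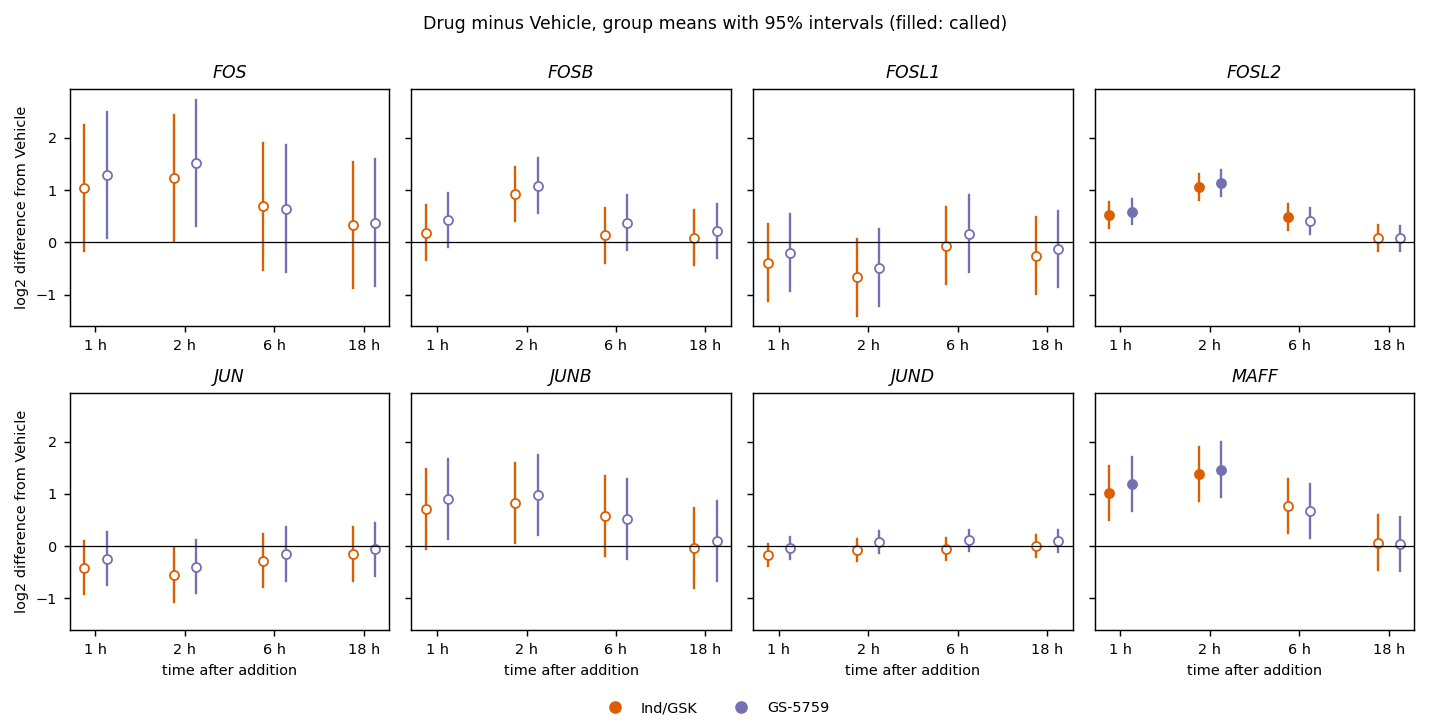
Log2 difference of each drug from Vehicle at 1, 2, 6 and 18 h for the 8 genes, as points with 95% intervals from the limma fit without the replicate block (n = 4 arrays per group); filled points passed the test, and FOSB was not tested there. Among differences that passed, the largest were at 2 h for FOSL2 (1.06 with Ind/GSK and 1.13 with GS-5759) and MAFF (1.38 and 1.46). Those of FOS at 2 h did not pass, but were larger than those of FOSL2 and, with GS-5759, than that of MAFF. FOS at all times and JUNB at 1, 2 and 6 h lay above 0 with wide intervals, and JUN and FOSL1 lay below 0 at 1 and 2 h.

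**Figure D3:**
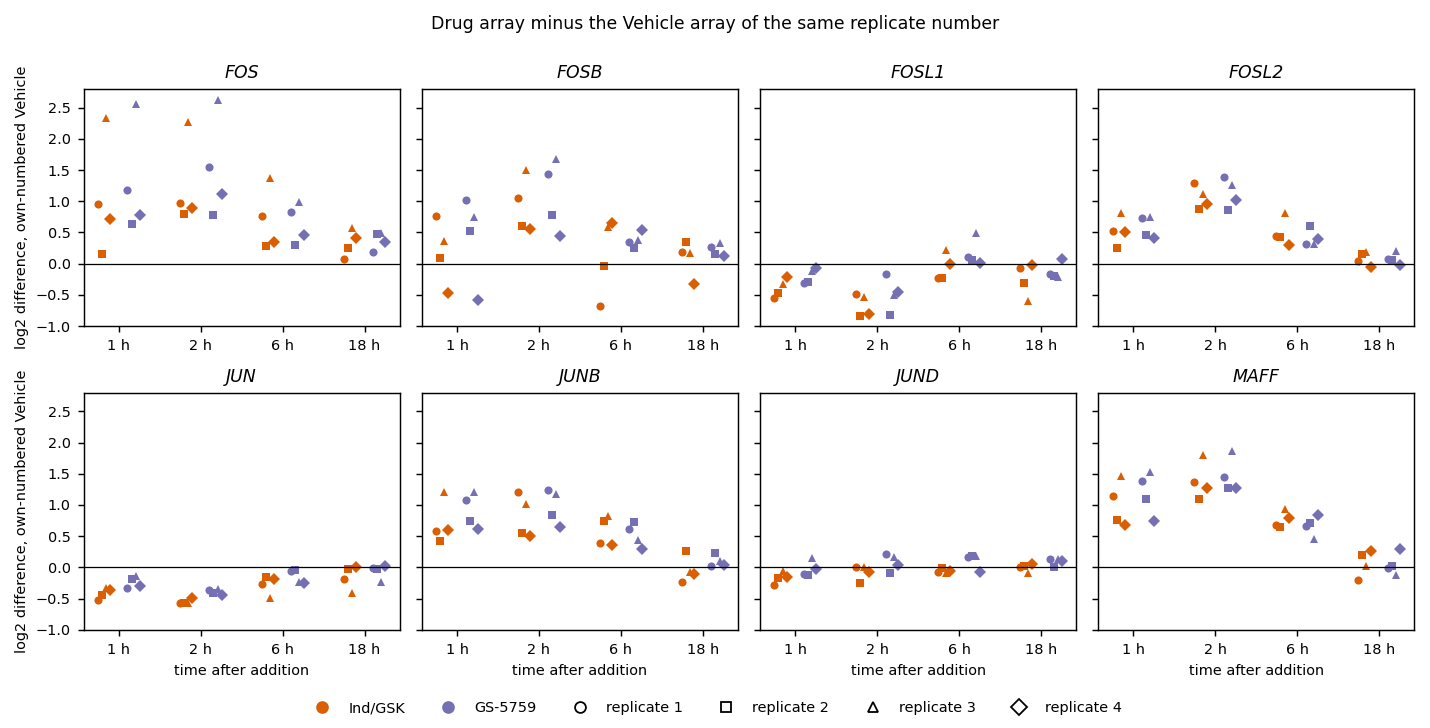
Log2 difference of each drug array from the Vehicle array of the same replicate number, time by time; colours give the drug and marker shapes the replicate number. All 32 points of FOS lie above 0, with replicate 3 the highest at 1 and 2 h, and all 24 points of JUN at 1, 2 and 6 h lie below 0.

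**Figure D4:**
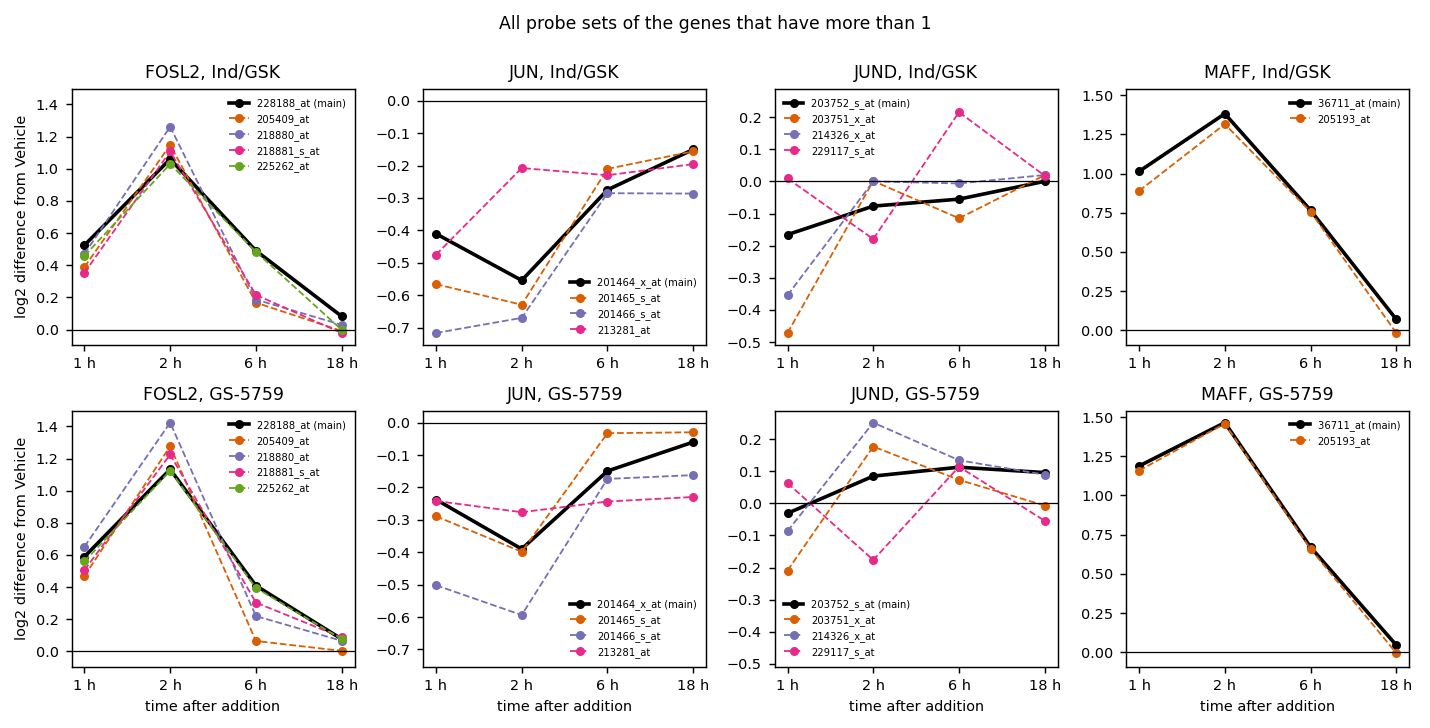
Log2 difference of group means from Vehicle for every probe set of the 4 genes with more than 1, with Ind/GSK in the upper row and GS-5759 in the lower row. The 5 FOSL2 and 2 MAFF probe sets follow 1 course with a maximum at 2 h, the 4 JUN probe sets lie below 0 throughout, and those of JUND cross 0.

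The design also sets the single bifunctional molecule against the combination. No member passed the test between GS-5759 and Ind/GSK at 1, 2, 6 or 18 h or averaged over the 4 times, and at each time 0% of all tested genes were called higher and 0% lower. On the average, 0.0416% of genes were higher and 0.0486% lower. The averaged differences of GS-5759 minus Ind/GSK, with 95% intervals, were 0.13 (-0.47 to 0.74) for FOS, 0.19 (-0.07 to 0.45) for FOSB, 0.18 (-0.19 to 0.55) for FOSL1 and 0.01 (-0.11 to 0.13) for FOSL2. They were 0.14 (-0.12 to 0.39) for JUN, 0.11 (-0.27 to 0.49) for JUNB, 0.14 (0.04 to 0.24) for JUND and 0.03 (-0.23 to 0.29) for MAFF. The interval of FOSL2 was the narrowest but for JUND, and those of FOS and JUNB were the widest. After 75th percentile centring FOSL2 and MAFF changed sign, to -0.06 and -0.03, as they did after quantile normalization, to -0.05 and -0.02.

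JUND had an unadjusted p of 0.00904 on the average (adjusted p = 0.194), and passed with the block (adjusted p = 0.00857), as did FOSL1 (0.593; 0.0477 with the block), in a fit that called 13.1% of genes higher and 1.18% lower. Same-numbered arrays were higher with GS-5759 than with Ind/GSK in 15 of 16 differences for FOSL1 and JUN, 14 of 16 for JUND, 12 of 16 for FOS, JUNB and MAFF, 11 of 16 for FOSB and 10 of 16 for FOSL2. The median averaged difference of all genes was itself 0.0552 as deposited, and -0.0136 after 75th percentile centring, where JUND differed by 0.07 and FOSL1 by 0.11. Without replicate 3 the blocked differences of JUND (0.11, adjusted p = 0.0729) and FOSL1 (0.17, adjusted p = 0.102) no longer passed.

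**Figure D5:**
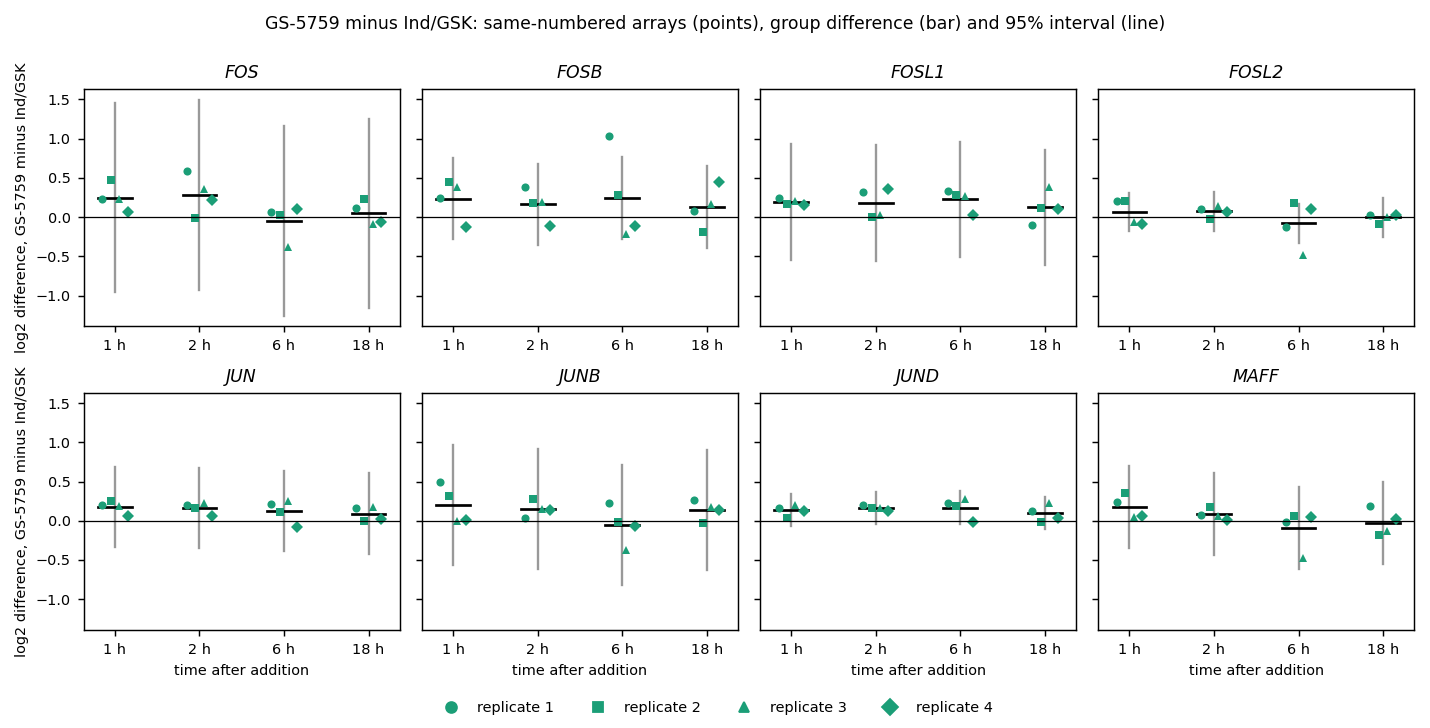
Log2 difference of GS-5759 minus Ind/GSK at each time for the 8 genes; green points are same-numbered arrays, black bars the differences of group means and grey lines their 95% intervals without the replicate block. At each time the interval of each gene includes 0, and the points of FOSL1, JUN and JUND lie mostly above 0.

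Over time, the mean response of both drugs changed past the test for FOSL2 alone, which fell by 0.65 ± 0.15 between 2 and 6 h (adjusted p = 0.0255; 0.312% of genes called higher and 0.257% lower in that comparison). Here the response is the average difference of both drugs from Vehicle. The call was lost in 4 of 24 fits that left out 1 array, those without Vehicle replicate 1 or 4 at 2 h or at 6 h, with adjusted p of up to 0.0974, and it was also lost in the fit on the groups alone. Of the 4 fits without a replicate number it held in 1, that without replicate 3 (-0.65, adjusted p = 0.0433), and was lost without 1, 2 or 4, with adjusted p of up to 0.288. The 4 other FOSL2 probe sets fell by 0.64 to 1.14 and each passed. Between 1 and 2 h the FOSL2 response was 0.54 ± 0.15 larger at 2 h (adjusted p = 0.135; 0.0245 with the block), where 0.132% of genes were called higher and 0% lower. MAFF changed by -0.71 ± 0.32 between 2 and 6 h and by -0.66 ± 0.32 between 6 and 18 h (adjusted p = 0.551 and 0.592), FOS by -0.71 and -0.31, and JUNB by -0.35 and -0.52 (adjusted p = 0.0137 with the block for the second). The FOSL1 response, which was negative at 2 h, was 0.63 ± 0.45 higher at 6 h (adjusted p = 0.891; 0.00928 with the block). Between 6 and 18 h 0.174% of all genes were called higher and 0.187% lower.

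Levels also differed between times in the Vehicle cultures. FOS was lower at 2 h than at 1 h on every array (-1.68 ± 0.60, adjusted p = 0.121; 7.52e-05 with the block), as were FOSB (-0.92) and MAFF (-0.64 ± 0.26, adjusted p = 0.176), so that 3 of the 8 members had non-overlapping groups, beside 5.25% of tested genes lower without overlap. JUN differed by -0.67 ± 0.25 (adjusted p = 0.144; 5.57e-04 with the block) and JUNB by -0.38 ± 0.38 (0.698; 0.0171 with the block). In that comparison 0.881% of genes rose and 1.69% fell; with the block 3.35% were higher and 12.3% lower. Without replicate 3, FOS (-1.64, adjusted p = 0.027), JUN (-0.62, adjusted p = 0.0114) and MAFF (-0.54, adjusted p = 0.0246) fell between 1 and 2 h in the unblocked fit. The share of all genes that fell in that fit is not given. From 2 to 6 h no member passed unblocked (0.174% of genes risen, 0.132% fallen), and FOSL1 (-0.63) and JUNB (-0.45) passed with the block, where 3.56% of genes were higher and 1.5% lower. From 6 to 18 h none passed unblocked, in a comparison where 7.97% of genes rose and 3.57% fell. With the block the shares were 19.5% higher and 9.55% lower. There FOSL1 differed by 0.42 (adjusted p = 0.00888 with the block, 0.151 with the block and without replicate 3) and MAFF by 0.55 ± 0.26 (adjusted p = 0.185), which without replicate 3 rose by 0.59 ± 0.14 (adjusted p = 0.00374). The 2 h differences from Vehicle in FOS, FOSB and MAFF are thus differences from a Vehicle level below that at 1 h.

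Other genes of the pathway were read from lists drawn from general knowledge, but chosen with earlier results of these data known. Of 15 other immediate early genes 13 were tested. With each drug the same 4 rose at 1 h and at 2 h: MYC, DUSP1, NR4A1 and KLF6. KLF6 was named after its values were seen, to complete the count. Of all genes 0.451% rose with Ind/GSK and 0.257% with GS-5759 at 1 h, and 1.34% and 1.6% at 2 h. With the block 4 of the 13 were higher and 2 lower with Ind/GSK at 1 h (2.28% and 15.8% of all genes), and 4 and 0 with GS-5759 (0.999% and 0.354%). At 2 h the block called 4 higher and 4 lower with Ind/GSK (3.76% and 8.09%), and 5 and 3 with GS-5759 (5.27% and 4.05%). NR4A1, an orphan nuclear receptor and CREB target, rose by 1.91 ± 0.33 with Ind/GSK and by 2.03 ± 0.33 with GS-5759 at 2 h (adjusted p = 2.1e-04 and 7.99e-05). DUSP1, a phosphatase that switches off MAP kinases, rose by 0.585 ± 0.10 and 0.634 ± 0.10 (adjusted p = 1.47e-04 and 4.22e-05), and MYC, a growth regulator, by 0.71 ± 0.14 and 0.77 ± 0.14. EGR1, a zinc finger factor whose gene, like FOS, is a classical SRF target, fell by 1.59 ± 0.19 with Ind/GSK at 2 h (adjusted p = 5.2e-07), and with GS-5759 its difference was -1.41 ± 0.19 (adjusted p = 4.83e-06). Of all genes 2.15% fell with Ind/GSK and 0.833% with GS-5759 at 2 h. EGR1 was also 1 of the 3 genes whose group means were most like those of JUN. The list's median at 2 h was -0.04 with Ind/GSK and -0.01 with GS-5759, beside -0.05 and -0.01 over all tested genes.

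None of the 13 tested of 19 further bZIP factors that can pair with AP-1 or MAF proteins rose or fell with either drug at any time, and none of the 7 tested of 8 genes for SRF, its cofactors, CREB1 and ATF1. With the block at most 3 of these 13 passed, 2 higher and 1 lower, with each drug at 2 h. There it called 3.76% of all genes higher and 8.09% lower with Ind/GSK, and 5.27% and 4.05% with GS-5759. Of these 7 at most 3 passed, all lower, with Ind/GSK at 1 h, where the block called 15.8% of genes lower. In the MAP kinase cascade 14 of 18 genes were tested. MAPK8, which encodes the JNK1 kinase of c-JUN, alone rose, with GS-5759 at 2 h (0.19 ± 0.05, adjusted p = 0.028), where 1.6% of all genes rose. Its difference with Ind/GSK at 2 h was 0.15 (adjusted p = 0.0957). With the block 2 of these 14 were higher with each drug at 2 h (3.76% of genes with Ind/GSK and 5.27% with GS-5759). It called 3 of them lower with Ind/GSK at 1 h (15.8% of genes) and 1 lower with Ind/GSK at 6 h (13.1%). Of 20 genes known as AP-1 targets 13 were tested: IL6 rose with both drugs at 1 and 2 h, by 2.75 ± 0.48 with Ind/GSK and 2.86 ± 0.48 with GS-5759 at 2 h, and PLAUR, the urokinase receptor, at 2 h, by 0.53 ± 0.12 and 0.56 ± 0.12. The other 11 did not pass at any time without the block, and IL6 is also a CREB target. With the block 3 of these 13 targets were higher and 1 lower with Ind/GSK at 1 h (2.28% and 15.8% of all genes), and 3 and 0 with GS-5759 (0.999% and 0.354%). At 2 h 4 were higher and 0 lower with each drug (3.76% of genes higher with Ind/GSK and 5.27% with GS-5759). At 6 h 4 were again higher and 0 lower with each (4.68% and 6.01% of genes higher). All 5 listed AU-rich element binding proteins, which govern the decay of immediate early mRNAs, were tested. ZFP36 was placed in the list of other immediate early genes instead, and rose or fell with neither drug at any time. ZFP36L1, which promotes decay, rose with both drugs at 1 h (0.72 and 0.81) and 2 h (0.52 and 0.52) and with Ind/GSK at 6 h (0.54, adjusted p = 0.0266; 0.46 with GS-5759, adjusted p = 0.117). ELAVL1, which stabilises such mRNAs, fell at 6 h, by 0.25 ± 0.03 with Ind/GSK and 0.16 ± 0.03 with GS-5759, and HNRNPD, which binds AU-rich elements in several isoforms, fell with Ind/GSK at 6 h (-0.17 ± 0.05, adjusted p = 0.0434; -0.08 with GS-5759, adjusted p = 0.551). Of all genes 0.451% rose with Ind/GSK and 0.257% with GS-5759 at 1 h, and 1.34% and 1.6% at 2 h. At 6 h 1.03% rose and 2.7% fell with Ind/GSK, and 0.548% fell with GS-5759. With the block at most 2 of the 5 were higher, with each drug at 1 h (2.28% and 0.999%), and 3 lower, with Ind/GSK at 6 h (13.1%). Of 3 tested heat shock genes DNAJB1 fell with both drugs at 2 h (-0.30 and -0.23) and with Ind/GSK at 6 h (-0.26). The shares of all genes fallen were 2.15%, 0.833% and 2.7%. With the block at most 2 of these 3 were lower, with Ind/GSK at 6 h.

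Across the 12 group means of log2(signal + 16), pairs of members were compared, as a description over groups of the same arrays. JUNB correlated with MAFF at r = 0.95, with FOSB at 0.94 and with FOS at 0.85, and FOS with MAFF at 0.91. JUN correlated with FOSL1 at 0.81, but with JUNB at -0.03, MAFF at -0.01 and FOSL2 at -0.64. The genes most like each member by the same measure were SLC25A25, YRDC and HES1 for FOS (r = 0.97, 0.95 and 0.94), WDR26, DUSP5 and PHLDA1 for FOSB (0.96 for each), and MAGEF1, TAF7 and ZNF254 for FOSL1 (0.95, 0.94 and 0.93). For FOSL2 they were LURAP1L, CPEB4 and BCOR (0.99, 0.98 and 0.98), for JUN EID2B, DNAJC28 and EGR1 (0.98, 0.97 and 0.97), and for JUNB PIM3, EDN1 and FOXC2 (0.98 for each). For JUND they were AGBL5, PTOV1 and RPH3AL (0.95, 0.94 and 0.94), over a JUND range of only 0.34 log2 units, and for MAFF ID3, ATF3 and SGK1 (0.98 for each). ATF3 is itself a bZIP partner of JUN proteins.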

How the data were processed

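RNA of BEAS-2B cells was hybridised to 48 Affymetrix arrays, 4 in each of 12 groups set by the titles. The deposited values are intensities on a linear scale, which the authors summarised by PLIER. The submitters' processing notes name Expression Console (Affymetrix) as the software and give no version; array medians of 111.9 to 128.2 were kept as deposited. The number of arrays and the differences between replicates limit the precision.

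Of 54675 probe sets, 62 are controls, 41091 carry 1 symbol, 1801 several and 11721 none; 41037 were matched by gene ID. The brightest probe set with 1 symbol stood for each gene, and genes above the 40th percentile of mean log2(signal + 16) were tested. limma 3.58.1 (R 4.3.3, lmFit and eBayes, 36 residual degrees of freedom) was fitted to all 12 groups, with Benjamini-Hochberg adjustment over 14409 genes within each comparison and a threshold of 0.05. FOSB, below the filter, had exact permutation tests.

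The members and gene lists were chosen with earlier results of these data known. All members are named; of each list up to 4 called genes, those with the largest mean change, are named, and the 3 genes with the highest correlation over group means are named for each member. Replicate numbers come from the titles: all 60 pairs of same-numbered arrays at a time correlated in their deviations from the group means (0.2008 to 0.9313), so the number was also fitted as a block.

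Alternatives were pseudocounts of 1 and 64, quantile normalization, 75th percentile centring, no filter, the groups of a comparison alone, the replicate block, other probe sets, and leaving out single arrays. Leaving out a replicate number, alone or with the block, was added after seeing the data. Figures used matplotlib 3.10.9. Promoter letters are from RefSeq (GRCh38.p14).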

Additional observations from a re-analysis of the deposited data

Results flagged for a closer look

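Of 96 groups of 4 arrays, 11 held an array far from the other 3 by Dixon's test at the 95% level, which chance alone flags in about 1 of 20 groups, and in all 11 it was replicate 3 (signals here are rounded to 3 significant digits). FOSL1 was low on that array, at a signal of 177 with Ind/GSK at 6 h, 347 with GS-5759 at 1 h, 257 with GS-5759 at 18 h, 149 with Vehicle at 6 h and 299 with Vehicle at 18 h. JUN was low as well, at 1310 with Ind/GSK at 6 h, 1980 with GS-5759 at 18 h and 2330 with Vehicle at 18 h. FOSL2 was low with GS-5759 at 6 h (2010) and MAFF with GS-5759 at 18 h (965). JUNB was high with Vehicle at 2 h (917). The keratin levels of replicate 3 differed from those of the other replicates, as given above, and their part in these values was not tested.

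The response of FOSL2, averaged over both drugs, differed between times: it changed by -0.65 between 2 and 6 h (limma, adjusted p = 0.0255). In that comparison 0.312% of genes were called higher and 0.257% lower, and the call was lost in some of the fits given above.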

How the results depend on the processing

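Of 133 results of the 7 tested members (19 comparisons each), 10 passed the test, and both other pseudocounts, quantile normalization, 75th percentile centring and no filter changed none of these calls; no alternative reversed a called direction. The replicate block made 30 further results pass. The members called with the block numbered 7 with Ind/GSK and 4 with GS-5759 at 1 h, 6 and 6 at 2 h, and 3 and 2 at 6 h. They numbered 2 for GS-5759 minus Ind/GSK averaged over times, 1, 2 and 1 for the changes of the response between 1 and 2, 2 and 6, and 6 and 18 h, and 3, 2 and 1 for Vehicle over the same steps. The block changed no other call. Fitted on the groups of a comparison alone, 0 members were called with Ind/GSK at 1 h, 1 with GS-5759 at 1 h, 0 with Ind/GSK at 6 h and 0 for the change between 2 and 6 h. Leaving out 1 array gave 0 to 2 members with each drug at 1 h, 2 at 2 h, 0 to 1 at 6 h and 0 to 1 for the change between 2 and 6 h. Leaving out 1 replicate number gave 0 to 1 with each drug at 1 h, 2 to 5 with Ind/GSK and 2 to 3 with GS-5759 at 2 h, 0 to 1 at 6 h, 0 to 1 for the change between 2 and 6 h, and for Vehicle 0 to 3 between 1 and 2 h and 0 to 1 between 6 and 18 h. Of 209 results of other probe sets, 10 lost a call and 2 gained one. Over all genes, Ind/GSK at 1 h called 264, against 103 after quantile normalization and 2608 with the block; GS-5759 minus Ind/GSK averaged called 13, against 35, 2060 and, after 75th percentile centring, 84. The causes were not tested.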
